A study of Mus musculus with 31 samples.

Results

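The sites described here are places where Foxa1/2 was bound in mouse lung adenocarcinomas with and without Nkx2-1, away from any Nkx2-1 peak and under active chromatin. They were chosen from the Foxa1/2 peaks of Nkx2-1 positive tumors on chromosomes 1 to 19. A site had to overlap a Foxa1/2 peak of Nkx2-1 deleted tumors by at least 1 bp, overlap no Nkx2-1 peak, and overlap an H3K27ac island in at least 1 of the 2 tumor types. Of 22611 autosomal peaks (23039 on all chromosomes), 9518 (42.1%) overlapped a deleted-tumor peak. Of those, 4294 (45.1%) had no Nkx2-1 peak, and 3868 of these (90.1%) lay under H3K27ac. The 3868 sites, called constant sites here, made up 17.1% of the autosomal peaks. Each chromosome held between 130 and 273 of them, or between 15.2% and 19.9% of its peaks. Foxa1/2, Nkx2-1 and H3K27ac values chose the sites, so they are given as a description. H3K4me1, H3K4me3 and H3K27me3 were not used in the choice.

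Foxa1 and Foxa2 are forkhead transcription factors known as pioneer factors, since they can bind their sites in closed, nucleosomal DNA. They are needed for the development of endoderm-derived epithelia, including lung, liver and gut. Nkx2-1 is a homeodomain factor that specifies lung epithelium and maintains its identity, and it works with Foxa1/2 at many lung genes. H3K27ac marks active promoters and enhancers, H3K4me1 marks enhancers and the flanks of promoters, H3K4me3 marks promoters most strongly, and H3K27me3 is laid down by the Polycomb machinery at silenced genes.

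The tumors carried the Nkx2-1 status deleted or positive per the labels, in mice of 4 to 7 months of age and mixed 129/B6 strain. Virus was given into the trachea and tamoxifen into the peritoneum, and the labels name no allele, Cre driver or dose per sample. Of 31 samples, 9 were inputs and 22 formed 11 groups: Foxa1/2 and 4 histone marks in deleted and in positive tumors, and Nkx2-1 in positive tumors. Both Foxa1/2 mice with deleted tumors were female and both with positive tumors were male, so sex and Nkx2-1 status cannot be told apart in that pair of lists. Each histone group held 1 female and 1 male mouse, and the Nkx2-1 mice were male. Within a group the 2 files held the same values, so it gave 1 merged list, no replicate spread exists, and no test between tumor types was possible. The intervals below are 95% intervals over sites and cover counting error only. The chromosomes of a list share its libraries and depth, so a direction repeated across chromosomes is not replication.

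The Foxa1/2 lists held 14526 peaks in deleted and 23039 in positive tumors, and the Nkx2-1 list held 29782. The only depth that the lists show is the reads in islands. Islands of H3K27ac held 31.2 M reads in deleted and 45.7 M in positive tumors, and those of H3K4me1 29.8 M in deleted and 35.8 M in positive tumors. Islands of H3K4me3 held 19.6 M reads in deleted and 28.9 M in positive tumors, and those of H3K27me3 19.8 M in deleted and 18.5 M in positive tumors. Island lists of deleted tumors covered less of the genome for H3K27ac (227 Mb in deleted against 292 Mb in positive tumors), H3K4me1 (300.4 Mb in deleted against 329 Mb in positive tumors) and H3K4me3 (64.0 Mb in deleted against 104 Mb in positive tumors). In whole tumors, fewer cells with a mark and less of the mark per cell cannot be told apart.

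Foxa1/2 peak scores at the constant sites were of medium height within the positive-tumor list. A score comes from the peak caller, and its floor of 60 goes with the p of 1e-06 in the list name. It is thus read as confidence in a peak, not as enrichment or binding strength. Strong and weak below refer to this score alone. The median score of the constant sites was 205 (interval 198 to 212) in deleted tumors and 179 (172 to 186) in positive tumors. These medians stood at percentile 60.7 of the deleted-tumor list and percentile 48.9 of the positive-tumor list. Scores depend on depth, so a score was compared only within its own list. The 5193 sites kept in both tumor types and under H3K27ac that did overlap an Nkx2-1 peak, called co-bound sites, had a median score of 213 in deleted tumors, at percentile 62.0, and of 560 in positive tumors, at percentile 79.97. The 2 classes thus had nearly the same median in deleted tumors and medians far apart in positive tumors. The 3450 sites under H3K27ac that had neither Nkx2-1 nor a deleted-tumor peak, called lost sites, had a median score of 100.5 in positive tumors. The 426 sites that met the rule except for H3K27ac had medians of 129 in deleted and 144.5 in positive tumors. All these classes were cut from the same 2 lists, so the scores carry no test.

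**Figure D1:**
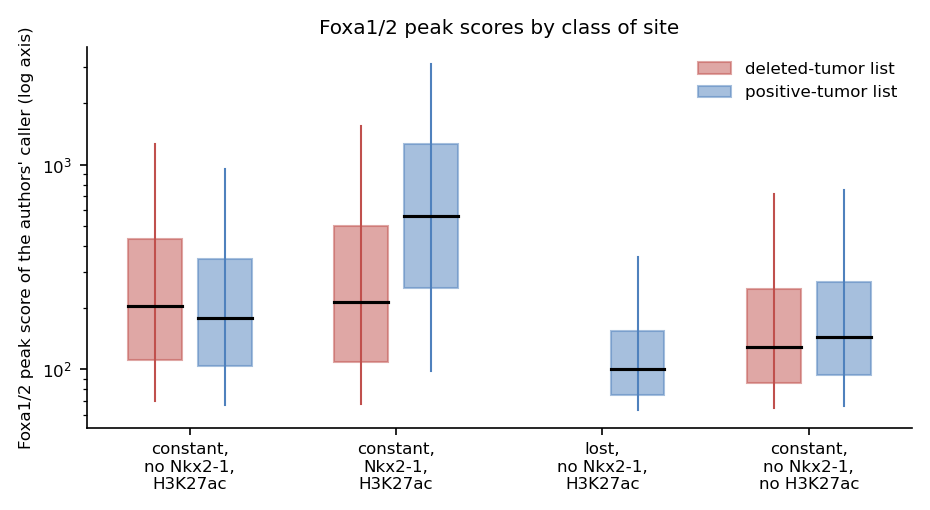
Foxa1/2 peak scores of the site classes, in the deleted-tumor and in the positive-tumor list (log axis); black lines are medians, boxes span the quartiles and thin lines run from percentile 5 to percentile 95. The constant sites and the co-bound sites had medians of 205 and 213 in deleted tumors and of 179 and 560 in positive tumors, and lost sites have no score in deleted tumors.

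The share of constant sites was highest in the middle of the positive-tumor list. In the lowest of 10 score groups of that list (scores 60 to 72) 14.6% of the peaks were constant sites, in the group with scores from 184 to 250 21.6%, and in the highest group (1067 to 3233) 7.21%. Co-bound sites instead made up 4.11% of the lowest and 69.1% of the highest group. The constant sites included 299 with a score of at least 1000 in deleted tumors, 184 in positive tumors and 103 in both. At the other end, 248 sites had a positive-tumor score between 60 and 69, close to the lowest score in the list.

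Peaks of the 2 tumor types lay at nearly the same base. The summits were a median of 21.5 bp apart (interval 21 to 23), and 3001 sites (77.6%) had summits within 50 bp of each other. For 161 sites (4.16%) the summits were over 200 bp apart. The rule required overlap, and of several overlapping deleted-tumor peaks the one with the nearest summit was used. The median was 22 bp both at co-bound sites and at constant sites without H3K27ac, with 75.5% and 79.8% of summits within 50 bp. The median width was 934 bp in deleted and 933 bp in positive tumors, against 958 bp in deleted and 1213 bp in positive tumors at co-bound sites. The sites overlapped 3876 distinct deleted-tumor peaks: 16 sites overlapped more than 1, and 8 deleted-tumor peaks overlapped more than 1 site. At 41 sites the deleted-tumor peak itself overlapped an Nkx2-1 peak, although the positive-tumor peak did not. Spearman's rho between the 2 scores was 0.43 over the 3868 constant sites, 0.53 over 5193 co-bound sites and 0.32 over the 426 sites without H3K27ac. Such correlations run across sites of the same 2 lists, so the points share libraries and depth, and width and positive-tumor score were themselves related (rho = 0.81).

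The thresholds of the rule ran through neighbouring values. The smallest overlaps with a deleted-tumor peak were 1, 5 and 6 bp, whereas the nearest lost sites missed one by 12, 13 and 33 bp. The smallest gaps to an Nkx2-1 peak were 1, 4 and 5 bp, and 53 constant sites had a gap of up to 100 bp, whereas the smallest Nkx2-1 overlaps of co-bound sites were 5, 7 and 16 bp. The smallest H3K27ac covers were 2, 6 and 27 bp, and the nearest sites without H3K27ac missed an island by 30, 45 and 51 bp. H3K27ac covered the whole peak at 3229 sites (83.5%) in deleted and 3191 (82.5%) in positive tumors.

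High scores are illustrated by 5 of the sites ranked highest in positive tumors (build mm9). The third highest score, 3100, was shared by 6 sites, of which the 3 on chromosome 1 are given, by the order of the list. The site chr14:35161562-35163042 had scores of 3100 in deleted and 3194 in positive tumors, with summits 4 bp apart, and lay 1480 bp from the nearest Nkx2-1 peak. H3K27ac islands of 22400 bp in deleted and 19000 bp in positive tumors covered it, and it carried no H3K4me3 in either. The site chr1:166450898-166452592, with a score of 3100 in both, was likewise under H3K27ac and H3K4me1 over its whole length and free of H3K4me3. The other 3 carried H3K4me3 over part of their length in both tumor types. They were chr7:137241422-137243114 (scores 1976 in deleted and 3134 in positive tumors), chr1:52052825-52054808 (3100 in both) and chr1:61825828-61827414 (1755 in deleted and 3100 in positive tumors). H3K4me3 covered 42.2% of the site on chromosome 7 in deleted and 77.6% in positive tumors, and the 2 sites on chromosome 1 also had less cover in deleted tumors. The lowest positive-tumor score, 60, was shared by 16 sites, 1 of which is given as an example. At chr1:51562359-51563079, with scores of 68 in deleted and 60 in positive tumors, H3K27ac islands of 19000 bp in deleted and 27000 bp in positive tumors covered the whole peak.

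H3K27ac was present in both tumor types at most constant sites. It covered 3682 sites (95.2%) in deleted and 3675 (95.01%) in positive tumors, a difference of 0.181 points (interval -0.805 to 1.17). It was present in both tumor types at 3489 sites (90.2%), in deleted tumors alone at 193 (4.99%) and in positive tumors alone at 186 (4.81%). Over all 22611 autosomal Foxa1/2 peaks, 1.25% had H3K27ac in deleted tumors alone and 13.3% in positive tumors alone. The rule asked for H3K27ac in either tumor type, so nothing is read from this contrast. Inside shared islands, the read density of deleted over positive tumors had a median log2 ratio of -0.17 at constant sites (interval -0.19 to -0.15), -0.26 at co-bound sites, -0.47 at lost sites and -0.40 over all peaks. These ratios are not scaled for depth, and Foxa1/2 and H3K27ac lists defined the classes, so the order of the classes is a description only.

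At sites with H3K27ac in 1 tumor type alone, the rank of the Foxa1/2 score among the constant sites was in the median higher in that tumor type. Foxa1/2 and H3K27ac both chose the sites, so this is a description. The median shift in rank, deleted minus positive, was 17.9% of all constant sites where H3K27ac was present in deleted tumors alone and -20.1% where it was present in positive tumors alone. Within the deleted-tumor list the median scores of these classes were 316 and 112, against 207 at sites with H3K27ac in both. Within the positive-tumor list they were 126 and 228, against 180. Both kinds lay under short islands, with a median width of 2000 bp, against 6200 bp at sites marked in both. Among the strongest of the first kind, chr11:40603302-40604759 had scores of 1573 in deleted and 1868 in positive tumors, with 100% H3K27ac cover in deleted and 0% in positive tumors. Its shift in rank, -1.86%, went against the median of its class. The sites chr7:107450390-107451738 (scores 2244 in deleted and 1269 in positive tumors) and chr12:40719008-40720426 (2075 in deleted and 1172 in positive tumors) had 100% and 71.8% cover in deleted and 0% in positive tumors. All 3 were fully under H3K4me1 in both tumor types. The strongest with H3K27ac in positive tumors alone was chr5:73282373-73283346, with scores of 564 in deleted and 1878 in positive tumors and cover of 0% in deleted and 61.6% in positive tumors.

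H3K4me1 covered nearly all constant sites in both tumor types. The share was 98.9% in deleted and 98.6% in positive tumors, a difference of 0.310 points (interval -0.0886 to 0.709). The interval lay above 0 where an island had to cover the summit (0.741 points, 0.320 to 1.16) and with the upper 50% of every island list by read count (3.79 points, 2.77 to 4.81). It also did so with positive-tumor lists trimmed to the covered length of the deleted-tumor lists (1.78 points, 1.28 to 2.28). That trimming drops islands from the positive-tumor list alone, which shifts the difference toward deleted tumors by construction. Only 37 sites (0.957%) carried it in deleted tumors alone and 25 (0.646%) in positive tumors alone, against a background over all autosomal Foxa1/2 peaks of 0.517% in deleted and 5.66% in positive tumors alone. At lost sites the share was 91.8% in deleted and 98.7% in positive tumors. The difference between tumor types at constant sites exceeded that at lost sites by 7.24 points (6.26 to 8.21), in this direction on 19 of 19 chromosomes. Those chromosomes are not replicates, and lost sites were defined by having no deleted-tumor Foxa1/2 peak. At co-bound sites the share was 99.9% in deleted and 99.8% in positive tumors, and the corresponding difference from constant sites, 0.195 points, had an interval that included 0 (-0.228 to 0.618). The 426 constant sites without H3K27ac had H3K4me1 at 56.6% in deleted and 59.9% in positive tumors.

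Of the 4 marks, H3K4me3 had the largest difference in share between tumor types at the constant sites. It covered 43.4% of them in deleted and 54.5% in positive tumors, a difference of -11.1 points (interval -12.3 to -9.85). The share was lower in deleted tumors on 19 of 19 chromosomes, by -16.9 to -5.80 points. The mark was present in both tumor types at 1583 sites, in deleted tumors alone at 96 (2.48%), in positive tumors alone at 524 (13.5%) and in neither at 1665. Over all autosomal Foxa1/2 peaks, 0.703% had H3K4me3 in deleted tumors alone and 24.9% in positive tumors alone. The constant sites thus had more of the first kind and fewer of the second than this background. The share over all those peaks was 36.6% in deleted and 60.8% in positive tumors, a difference of -24.2 points. That share was also lower in deleted tumors on 19 of 19 chromosomes. Constant sites were thus above the background in deleted and below it in positive tumors. The direction at constant sites depends on the length of the island lists. When the positive-tumor lists were trimmed to the covered length of the deleted-tumor lists, the difference at constant sites turned to 17.7 points. The trimming itself shifts the difference toward deleted tumors by construction.

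Constant sites carried H3K4me3 less often than co-bound sites and more often than lost sites. Co-bound sites had it at 58.8% in deleted and 81.6% in positive tumors, and lost sites at 27.7% in deleted and 48.0% in positive tumors. Constant minus co-bound was -15.4 points in deleted tumors (interval -17.4 to -13.3) and -27.2 points in positive tumors (-29.1 to -25.3). With the upper 50% of every island list by read count these were -3.81 points in deleted and -14.5 in positive tumors, and with the trimmed lists the value in positive tumors was -5.33. The difference between tumor types was smaller in size at constant sites (-11.1 points) than at co-bound (-22.8) and lost sites (-20.3). For this difference, constant minus co-bound was 11.8 points (10.1 to 13.5), and constant minus lost was 9.22 points (7.39 to 11.1), each above 0 on 19 of 19 chromosomes. With the trimmed lists the contrast with co-bound sites turned to -9.56 points, and with the upper 50% of every island list by read count the contrast with lost sites was 1.44 points, with an interval that included 0 (-0.225 to 3.10). Counted only among sites that carried H3K4me3 in positive tumors, 24.9% of constant sites (23.1 to 26.8) lacked it in deleted tumors, against 28.7% of co-bound (27.4 to 30.1) and 43.1% of lost sites (40.7 to 45.5).

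**Figure D2:**
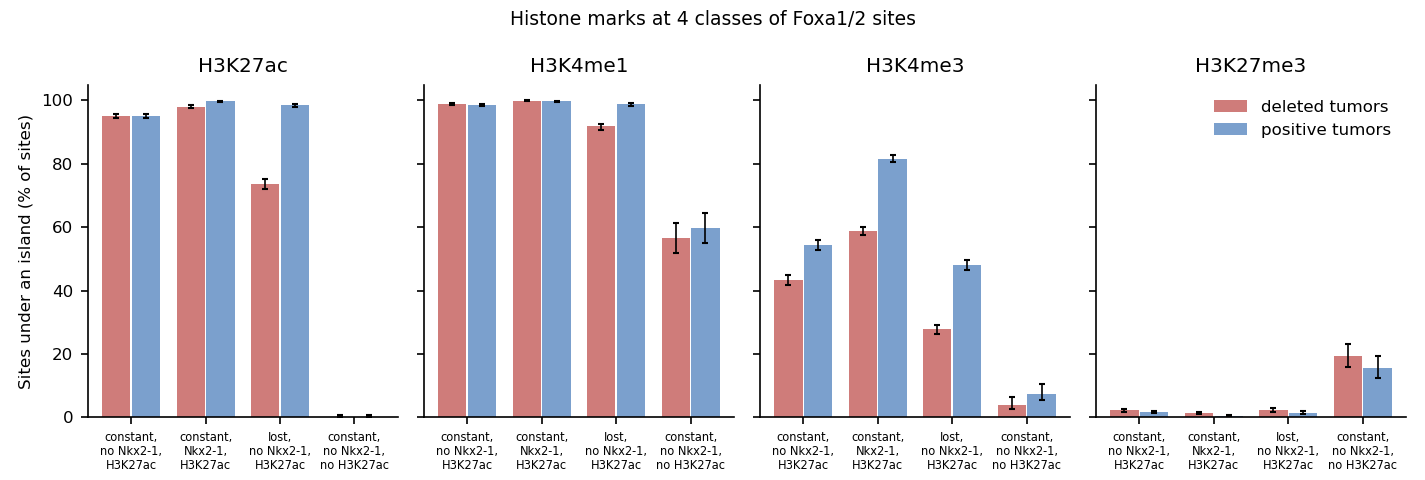
Share of sites under an island of each histone mark in deleted and positive tumors, for 4 site classes, with 95% Wilson intervals. H3K4me3 covered 43.4% of constant sites in deleted and 54.5% in positive tumors, while H3K4me1 stayed near 99% in both.

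In either tumor type, the H3K4me3 share of constant sites hardly followed the positive-tumor Foxa1/2 score. The difference between tumor types was largest where that score was high. The share was not set against the deleted-tumor score. Across 10 score groups of the positive-tumor list it lay between 38.5% and 47.8% in deleted tumors and between 49.7% and 58.9% in positive tumors. It was lower in deleted tumors in all 10 groups, by -17.8 to -7.57 points. In the groups with scores up to 110 the difference was -7.84, -7.57 and -8.44 points. In those with scores from 560 upward it was -17.8 and -17.2 points, and in the groups between it lay from -13.4 to -9.07 points. Co-bound sites had a higher share than constant sites in all 10 groups in both tumor types. In the lowest group it was 66.7% for co-bound against 43.6% for constant sites in deleted tumors, and 84.4% against 51.4% in positive tumors. The score groups were not recomputed with the trimmed lists, where the difference over all constant sites turned.

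**Figure D3:**
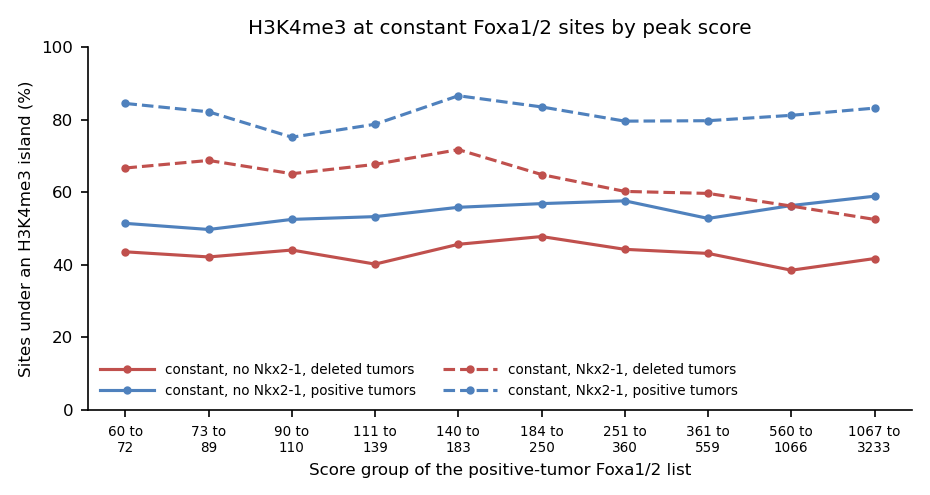
Share of constant and co-bound sites under H3K4me3 in deleted and positive tumors (%), by score group of the positive-tumor Foxa1/2 list; solid lines are constant sites and dashed lines co-bound sites. Constant sites lie between 38.5% and 47.8% in deleted and between 49.7% and 58.9% in positive tumors, below co-bound sites in all 10 groups.

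The sites that differed in H3K4me3 lay under small, thin islands. Where the mark was present in positive tumors alone, the median island was 1600 bp wide with 54.0 reads per kb. Where it was present in both, the islands were 2000 bp wide in deleted and 3000 bp in positive tumors, with 136 reads per kb in deleted and 212 in positive tumors. The 96 sites with H3K4me3 in deleted tumors alone lay under islands of 1000 bp with 38.2 reads per kb, and their median shift in score rank was 19.98%. The strongest of them, chr9:61751508-61752901, had scores of 3221 in deleted and 3100 in positive tumors, and its H3K4me3 cover was 93.3% in deleted and 0% in positive tumors. In the opposite direction, chr7:20131231-20133599, a peak of 2369 bp lying 910 bp from an Nkx2-1 peak, had scores of 674 in deleted and 2942 in positive tumors, and H3K4me3 cover of 0% in deleted and 100% in positive tumors. H3K27ac and H3K4me1 covered all of that site in both tumor types.

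H3K27me3, the Polycomb mark, was rare at constant sites, as it was over all autosomal Foxa1/2 peaks. It covered 88 sites (2.28%) in deleted and 66 (1.71%) in positive tumors, a difference of 0.569 points (interval 0.226 to 0.912). The interval included 0 where an island had to cover the summit (0.185 points, -0.122 to 0.492) and with the upper 50% of both Foxa1/2 lists (0.485 points, -0.0404 to 1.01). It lay on 54 sites in both, on 34 (0.879%) in deleted tumors alone and on 12 (0.310%) in positive tumors alone, against a background over all autosomal Foxa1/2 peaks of 1.40% in deleted and 0.279% in positive tumors alone. Its share over all autosomal Foxa1/2 peaks was 3.22% in deleted and 2.10% in positive tumors. Lost sites had 2.29% in deleted and 1.42% in positive tumors, and co-bound sites 1.31% in deleted and 0.578% in positive tumors. The share at constant sites without H3K27ac was higher, at 19.2% in deleted and 15.7% in positive tumors. Of the 54 sites with H3K27me3 in both tumor types, 68.5% carried H3K4me3 in deleted and 72.2% in positive tumors, against 43.4% in deleted and 54.5% in positive tumors over all constant sites. An example is chr1:186553072-186554027, which lay under an H3K27me3 island of 86200 bp in deleted and 55400 bp in positive tumors and was also covered by H3K4me3 and H3K27ac in both. The widest constant site, chr6:15134196-15137020 (2825 bp), was covered by H3K27me3 over 0% of its length in deleted and 100% in positive tumors, with H3K27ac, H3K4me1 and H3K4me3 over its whole length in both.

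Over the 4 marks, 2846 sites (73.6%) had the same combination in both tumor types. This share was not computed for any other site class or for all autosomal peaks. The rule required H3K27ac in either tumor type, and H3K27ac is part of the combination, so the share is a description only. The combination of H3K27ac and H3K4me1 without the other marks was found at 1975 sites (51.1%) in deleted and 1554 (40.2%) in positive tumors. That of H3K27ac, H3K4me1 and H3K4me3 was found at 1612 (41.7%) in deleted and 2048 (52.9%) in positive tumors. All 4 marks were present at 51 sites in deleted and 42 in positive tumors, and none was present at 24 in deleted and 31 in positive tumors.

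As a description, the shift in Foxa1/2 rank and the difference in H3K27ac ran in the same direction across the constant sites. The sites were ranked by score within each tumor type, and the shift in rank (deleted minus positive, in percent of all 3868) was used to form 5 groups. In the group whose rank was lowest in deleted relative to positive tumors, 2.07% had H3K27ac in deleted tumors alone and 11.1% in positive tumors alone. In the group at the other end, 10.6% had it in deleted tumors alone and 1.42% in positive tumors alone. The median log2 ratio of H3K27ac read density was -0.37, -0.26, -0.16, -0.10 and 0.03 from the lowest to the highest group. Spearman's rho between rank shift and this ratio was 0.28 over 3489 constant sites and 0.41 over 5079 co-bound sites. For H3K4me1 it was 0.23 over constant and 0.20 over co-bound sites, and for H3K4me3 0.04 over 1583 constant and 0.14 over 3023 co-bound sites. These are descriptions across sites that share the same libraries, and the Foxa1/2 lists differ in sex as well as in Nkx2-1 status. Foxa1/2 and H3K27ac also chose the sites, and the rule required H3K27ac in at least 1 tumor type, so these values carry no test.

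**Figure D4:**
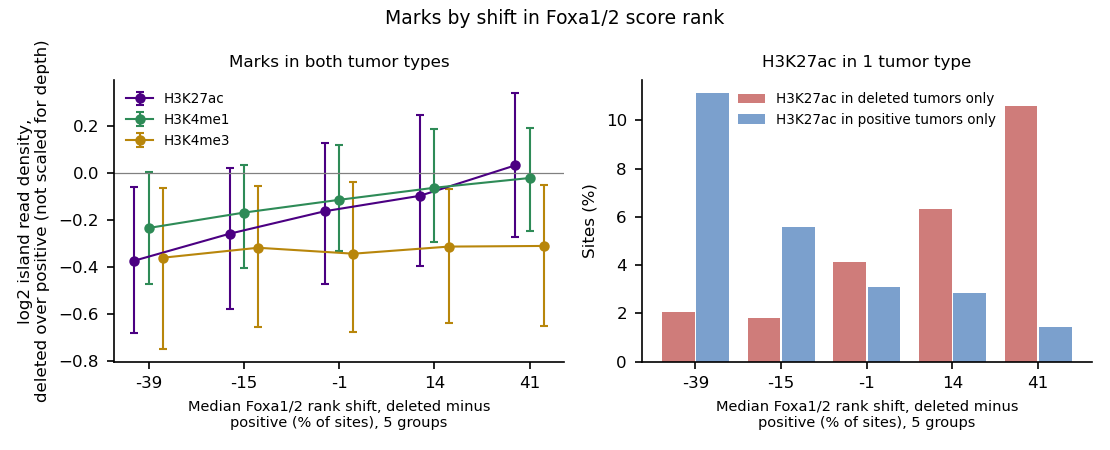
Marks at constant sites in 5 groups of Foxa1/2 rank shift, deleted minus positive. Left, median log2 ratio of island read density (deleted over positive) at sites marked in both tumor types, with bars for the quartiles; right, percent of sites with H3K27ac in deleted or in positive tumors alone, which ran in opposite directions across the groups.

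The extremes of the rank shift showed the same pairing in part. The site chr5:112731040-112731814 had scores of 1279 in deleted and 60 in positive tumors, and its H3K27ac cover was 100% in deleted and 53.4% in positive tumors. At the other extreme, chr15:82651413-82652848 had scores of 62 in deleted and 1283 in positive tumors, and H3K27ac cover of 0% in deleted and 100% in positive tumors. In contrast, chr8:119806266-119807119 (2273 in deleted and 67 in positive tumors) was fully under H3K27ac in both. Its summits lay 1044 bp apart, and its deleted-tumor peak was 2210 bp wide. Likewise, chr6:129163298-129163923 (1265 in deleted and 63 in positive tumors) was fully under H3K27ac in both. Among sites ranked higher in positive tumors, chr11:104451043-104452348 had H3K27ac cover of 87.9% in deleted and 100% in positive tumors. For chr14:121949409-121950764 it was 43.7% in deleted and 100% in positive tumors.

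Absence of an Nkx2-1 peak at a constant site did not mean distance from Nkx2-1. The nearest Nkx2-1 peak lay a median of 8319 bp away. It lay within 1000 bp of 510 sites (13.2%), within 10000 bp of 2103 (54.4%) and over 50000 bp from 444 (11.5%). The median gap was 6589.5 bp at lost sites and 30027.5 bp at constant sites without H3K27ac. Of lost sites, 15.9% lay within 1000 bp, 59.2% within 10000 bp and 10.1% over 50000 bp away. For constant sites without H3K27ac these shares were 1.41%, 19.5% and 33.1%. In positive tumors, 1500 constant sites (38.8%, interval 37.3 to 40.3) shared an H3K27ac island with an Nkx2-1 peak. In deleted tumors 1397 sites (36.1%) lay in an island over such a position. These island shares were not computed for lost sites or over all Foxa1/2 peaks. The label independent of Nkx2-1 thus rests on the absence of an Nkx2-1 peak at the positive-tumor Foxa1/2 peak. Many of the sites had one nearby, as did many lost sites. The effect of Nkx2-1 loss on a single site was not tested.

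The difference in H3K4me3 share between tumor types was larger in points at constant sites close to Nkx2-1, where the positive-tumor share was also higher. Within 1000 bp of an Nkx2-1 peak it covered 58.4% in deleted and 76.1% in positive tumors, a difference of -17.6 points (-21.2 to -14.1). The differences at 1001 to 5000, 5001 to 10000 and 10001 to 50000 bp were -12.3, -13.1 and -8.02 points. Over 50000 bp away it covered 44.6% in deleted and 51.6% in positive tumors, a difference of -6.98 points (-10.1 to -3.90). Among sites with H3K4me3 in positive tumors, the part that lacked it in deleted tumors was not highest next to Nkx2-1. It was 24.7% (20.7 to 29.3) within 1000 bp, 25.4% at 1001 to 5000 bp, 34.1% (28.9 to 39.8) at 5001 to 10000 bp, 22.8% at 10001 to 50000 bp and 17.9% (13.5 to 23.4) beyond. Sites that shared a positive-tumor H3K27ac island with an Nkx2-1 peak had a difference of -15.3 points (-17.4 to -13.3), and the 2175 that lay in an island without one had -9.33 (-10.9 to -7.76). Islands with an Nkx2-1 peak were also wider, with a median of 13200 bp, against 3600 bp without one. The H3K4me3 contrasts by distance and by island were not recomputed with the trimmed lists, where the difference over all constant sites turned. For H3K27ac the difference was -2.75 points within 1000 bp and 8.11 points over 50000 bp away. There its share was 93.7% in deleted and 85.6% in positive tumors. The rule required H3K27ac in either type, so this pattern is a description. Foxa1/2 scores of positive tumors hardly followed the distance, with a median of 170 in the nearest and 175.5 in the farthest class. In deleted tumors the median score was lower in the nearest class, at 173. In the other classes it lay from 194.5 to 217, with 211 in the farthest.

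**Figure D5:**
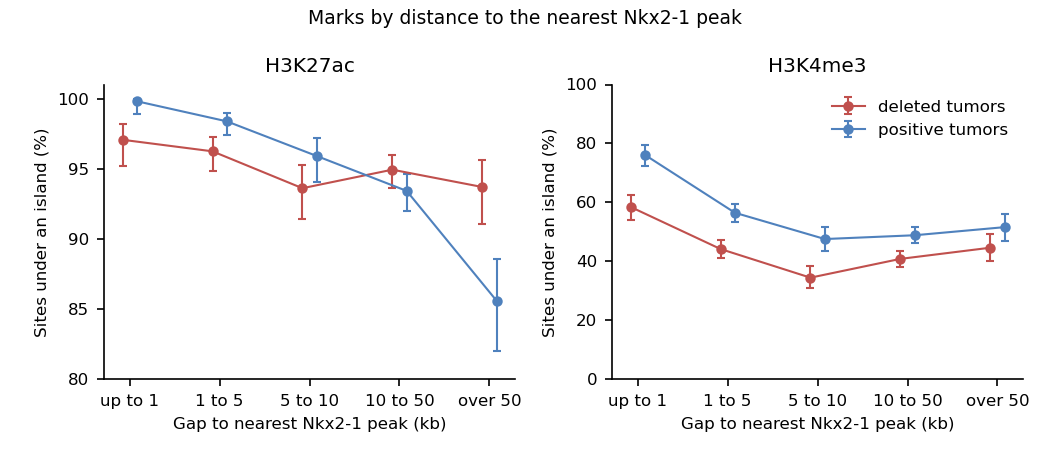
Share of constant sites under H3K27ac and H3K4me3 in deleted and positive tumors, by distance to the nearest Nkx2-1 peak, with 95% Wilson intervals; the H3K27ac axis starts at 80%. The H3K4me3 difference was -17.6 points within 1000 bp and -6.98 points over 50000 bp.

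Most constant sites stood alone. The H3K27ac islands that held a constant site numbered 3477 in deleted and 3464 in positive tumors, of which 3265 in deleted and 3256 in positive tumors held just 1, and no island held more than 5. These islands had a median width of 5400 bp in deleted and 5600 bp in positive tumors, against 2200 bp in deleted and 2400 bp in positive tumors over all islands. Wide islands overlap peaks more readily than narrow ones. Per site marked in both tumor types, the median H3K27ac island was 6200 bp wide in both at constant sites. At co-bound sites it was 8400 bp wide in deleted and 10000 bp in positive tumors, and over all autosomal Foxa1/2 peaks 6400 bp in deleted and 9000 bp in positive tumors. Among those of positive tumors, 15.7% also held a co-bound site and 20.6% a Foxa1/2 peak, with or without Nkx2-1, that had no deleted-tumor counterpart. With sites within 10000 bp of each other joined, 3300 sites remained single, 243 stretches held 2, 26 held 3 and 1 held 4. That stretch, chr6:97290777-97305689, was 14913 bp long and held 5 Foxa1/2 peaks in deleted and 4 in positive tumors, with 1 Nkx2-1 peak between them. H3K27ac cover was 100% in deleted and 93.3% in positive tumors, and H3K4me3 covered 32.8% in deleted and 40.8% in positive tumors.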

How the data were processed

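Chromatin immunoprecipitation and sequencing were done by the authors. Bowtie, SICER 1.1 and MACS 1.4.2 are named, with build mm9, in the submitters' processing notes. Each deposited peak carries a score of at least 60 from the authors' peak caller, with a p of 1e-06 in the list name. Each deposited island carries a read count, unscaled for depth, with a window of 200 bp, an FDR of 0.01 and gaps of 600 bp (H3K4me1, H3K27me3) or 200 bp (H3K27ac, H3K4me3) in the list name. Both files of a group held the same values and were used as 1 list, and no p-value was computed. The 9 inputs were not used here.

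A mark was present where an island overlapped a peak by 1 bp. Shares carry 95% Wilson intervals, differences between tumor types at the same sites paired Wald intervals, differences between independent classes Newcombe intervals, differences between classes in those changes Wald intervals from summed variances, and medians order-statistic intervals. Read density is the count of a whole island per kb, not of the peak within it. Overlap rules were tested on simulated intervals. Computation used Python 3.11.15, numpy 2.4.6, scipy 1.17.1 and matplotlib 3.10.9.

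The sites, classes and alternatives were chosen with earlier results of these data known. Named regions followed a rule on extremes: highest, lowest and widest peaks, the highest-scoring sites of each mark class, the joined stretches, and the largest rank shifts; a selection of these is printed. No genome or annotation of mm9 was used here, so no site was assigned to a gene and no sequence or motif was analysed here. Coordinates are 1-based.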

Additional observations from a re-analysis of the deposited data

How the results depend on the processing

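The results were recomputed with each choice changed in turn, giving 98 values, of which 30 moved outside the interval of the reported value (for the number of sites, by over 1.5 times), 2 turned and 66 did neither. Among the 66, the number of sites reached 5717 with the upper 50% of the Nkx2-1 list. The H3K27ac difference, whose interval included 0, was -0.238 points with summit cover and -0.490 with that Nkx2-1 list. For values that moved or turned, the cause was not tested unless named. With the upper 50% of both Foxa1/2 lists by score, 1442 sites remained, with a median positive-tumor score of 386 and H3K27ac in both tumor types at 92.3%. With the upper 50% of the Nkx2-1 list, which lets more sites through, these were a score of 221 and 92.4%, the H3K4me3 difference was -13.8 points, and 28.3% of sites shared an island with Nkx2-1. Where an island had to cover the summit, 88.4% had H3K27ac in both, the differences between tumor types were 0.741 (H3K4me1), -13.4 (H3K4me3) and 0.185 points (H3K27me3), and constant minus co-bound for H3K4me3 was -12.7 points in deleted and -25.2 in positive tumors. With the upper 50% of every island list by read count, H3K27ac in both was 81.9%, the H3K27ac difference 1.87 and the H3K4me1 difference 3.79 points. Constant minus co-bound for H3K4me3 was then -3.81 points in deleted and -14.5 in positive tumors, the contrast with lost sites 1.44 points, and 44.1% shared an island with Nkx2-1. Without sites within 1000 bp of Nkx2-1, the share in both was 89.2%, constant minus co-bound -17.7 in deleted and -30.5 in positive tumors, and 29.7% shared an island. With co-bound sites weighted to the scores of constant sites, constant minus co-bound in deleted tumors was -20.7 points. Trimming positive-tumor lists of the active marks to equal covered length drops islands from that list alone, which shifts every difference toward deleted tumors by construction. H3K27ac in both was then 79.3%, and the differences were 16.7 (H3K27ac), 1.78 (H3K4me1) and, turned, 17.7 points (H3K4me3). Constant minus co-bound for the H3K4me3 difference turned to -9.56 points, constant minus lost was 12.1, and constant minus co-bound in positive tumors was -5.33.

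The alternatives for the H3K27ac difference and for the contrasts of the H3K4me3 difference were added after seeing the data. No paired analysis was possible because the files of both replicates of a group were identical, and leaving out each replicate was not run for the same reason. The lists hold no values below their thresholds, and 248 constant sites had positive-tumor scores of 60 to 69, next to that threshold.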

Other observations

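Read density in islands at sites under H3K27me3 in both tumor types had a median log2 ratio, deleted over positive, of 0.20 at 54 constant sites (interval 0.14 to 0.25), against 0.22 at 412 of all autosomal Foxa1/2 peaks (0.18 to 0.24). The ratio is not scaled for depth.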
